A study of Mus musculus with 4 samples.

Results

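Myelin is the lipid-rich sheath that oligodendrocytes wrap around axons of the central nervous system. The 9 myelin genes described here are Mbp, Mobp, Mog, Mag, Cnp, Cldn11, Mal, Ermn and Opalin, chosen by symbol as 9 of the 32285 gene rows of a spatial expression matrix of mouse olfactory bulb. Each symbol had 1 row. Compact myelin is held together by proteins on its cytoplasmic faces, while other proteins sit at the outer surface, next to the axon, in the tight junctions between the wraps or in the cytoskeleton of the cell. In the olfactory bulb, oligodendrocytes are known from the granule cell layer and its white matter and from the tracts of mitral and tufted cell axons. The axons of the olfactory nerve carry no myelin and are enclosed by ensheathing glia.

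The study compared a control mouse with a mutant mouse, 1 of each, both examined at 5 months of age. The mutant carried a transgenic soluble form of VEGFR1, a decoy that binds vascular endothelial growth factor (VEGF). Its expression was limited to the brain and regulated by tetracycline through a Camk2a-driven tTA (camk2a-tTa), with the blockade of VEGF at E13.5. The design text gives degeneration of the mutant bulb as 28%. The labels do not say whether the control mouse carried the driver. Fresh-frozen coronal sections of 10 µm lay on 2 Visium capture areas per mouse, with 3 sections of the control and 4 of the mutant. A Visium spot captures RNA from a patch of tissue wide enough for several cells, and transcripts are counted as unique molecular identifiers (UMIs). The matrix joins 4 libraries, numbered 1 to 4 in the spot barcodes, and these numbers match no label. No library was therefore assigned to a mouse, the control was not compared with the mutant, and each value below stands for 1 library.

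Libraries 1 to 4 held 1662, 715, 1296 and 943 spots with at least 500 UMIs, with median depths of 7898.5, 7186, 9043 and 9829 UMIs. Between 62 and 651 barcodes were shared by pairs of libraries. All markers of granule, mitral and tufted, and periglomerular cells had UMIs in all 4 libraries. The summed levels of several marker lists were far apart between libraries, from 263 to 1670 counts per 1000000 UMIs (CPM) for forebrain excitatory neurons, from 207 to 2136 CPM for reactive glia and from 3283 to 8530 CPM for leptomeninges.

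Oligodendrocyte genes are known targets of SOX10 and MYRF, and the sequence before the transcript start was read for 8 of the 9 genes from RefSeq promoters of build GRCm38.p6. Both strands of the 250 bases before each start were searched for ACAAAG and ACAATG, cores of SOX-type sites, and for CTGGCAC, a core of the MYRF-type site. ACAAAG was found in 4 of the 8 genes and in 16.5% of all 32851 promoters, ACAATG in 1 gene and 10.7%, and CTGGCAC in 2 genes and 4.19%. Mobp held 6 copies of ACAAAG, which no other of the 32851 promoters reached. Mag and Cnp each held 1 copy of ACAAAG and 1 of CTGGCAC, Mag in 2 overlapping windows of its 3 and not in the third. A gene is counted here when any of its windows holds the motif, while the shares are of single promoters. The promoters of Cldn11, Mal and Mog held none of the 3 motifs. A match is a description of the letters and not a binding site. The Mobp stretch is shown for its repeated core, Mag and Cnp for holding both kinds of core, and Cldn11 because its levels stood apart from those of the other genes. Capitals mark the matches, read 5′ to 3′ in the direction of the gene. Mobp lies on the plus strand at chr9:120149492-120149741, Mag on the minus strand at chr7:30914864-30915113, Cnp on the plus strand at chr11:100574689-100574938 and Cldn11 on the plus strand at chr3:31149670-31149919.
Mobp: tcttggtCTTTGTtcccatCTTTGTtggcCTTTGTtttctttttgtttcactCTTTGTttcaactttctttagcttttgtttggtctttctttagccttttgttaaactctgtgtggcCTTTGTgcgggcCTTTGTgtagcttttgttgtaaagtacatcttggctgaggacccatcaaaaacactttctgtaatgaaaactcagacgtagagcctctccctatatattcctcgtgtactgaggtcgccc
Mag: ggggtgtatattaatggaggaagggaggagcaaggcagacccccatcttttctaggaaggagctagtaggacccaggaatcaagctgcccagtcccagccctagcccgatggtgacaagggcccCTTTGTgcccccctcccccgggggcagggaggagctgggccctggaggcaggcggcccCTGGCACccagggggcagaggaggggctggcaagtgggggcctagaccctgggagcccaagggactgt
Cnp: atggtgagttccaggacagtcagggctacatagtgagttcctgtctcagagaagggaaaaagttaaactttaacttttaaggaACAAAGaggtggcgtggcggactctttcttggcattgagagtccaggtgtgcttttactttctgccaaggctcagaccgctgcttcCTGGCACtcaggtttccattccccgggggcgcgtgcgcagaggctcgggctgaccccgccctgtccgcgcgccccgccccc
Cldn11: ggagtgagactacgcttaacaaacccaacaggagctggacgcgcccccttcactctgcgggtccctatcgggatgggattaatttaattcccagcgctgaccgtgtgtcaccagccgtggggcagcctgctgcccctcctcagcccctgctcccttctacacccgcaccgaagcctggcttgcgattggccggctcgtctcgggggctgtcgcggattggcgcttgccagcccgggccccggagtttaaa

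Myelin transcripts were found in all 4 libraries, and the highest library exceeded the lowest by at most 1.44-fold in all of the 9 genes but Cldn11 and, on few counts, Opalin. Mbp, the basic protein that compacts the sheath, was at 716, 737, 809 and 966 CPM in libraries 1 to 4. The highest library exceeded the lowest 1.35-fold, with a 95% interval for counting error of 1.31 to 1.39. Mobp, another basic protein of compact myelin, was at 189, 194, 194 and 224 CPM, a ratio of 1.19 (1.12 to 1.26). Both genes were highest in library 4 and lowest in library 1. Intervals here and below cover counting error only, and in spots of mixed cells fewer oligodendrocytes and less RNA per cell cannot be told apart.

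The surface and axon-facing proteins moved within a like range. Mag, which faces the axon and takes part in its contact with the sheath, was at 44.3, 46.3, 49.1 and 54.1 CPM, a ratio of 1.22 (1.08 to 1.38). Mog, on the outermost surface of the sheath, was at 17.9, 24.1, 22.2 and 25.7 CPM, a ratio of 1.44 (1.197 to 1.72). The order of the Mog levels between libraries 2, 3 and 4 lay within their intervals. Cnp, an enzyme of non-compact myelin that keeps its cytoplasmic channels open, was at 102, 111, 119 and 134 CPM, a ratio of 1.32 (1.22 to 1.43). Ermn, a cytoskeletal protein of oligodendrocytes, was at 12.9, 14.4, 13.48 and 17.5 CPM, a ratio of 1.35 (1.09 to 1.69). Mal, a membrane protein that sorts lipid rafts and is also made by epithelial cells, was at 63.1, 65.1, 85.5 and 90.5 CPM, a ratio of 1.43 (1.302 to 1.58). Libraries 1 and 2 did not differ beyond their intervals in Mal, and neither did libraries 3 and 4. The intervals of libraries 1 and 2 lay below those of libraries 3 and 4.

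Cldn11 forms the tight junctions between the wraps of central myelin and is also known from the arachnoid barrier of the meninges. It was at 37.4, 39.4, 98.5 and 90.3 CPM in libraries 1 to 4, so that library 3 exceeded library 1 by 2.64-fold (2.37 to 2.93). It made up 3.14%, 3.17%, 7.03% and 5.61% of the UMIs of the 9 genes, whereas the share of Mbp stayed between 57.8% and 60.2%. Libraries 3 and 4 were high and libraries 1 and 2 low, with no overlap of their intervals. The same split without overlap was seen for Mbp and Mal, at smaller ratios of 1.35 and 1.43. Of the 8 myelin genes that reached 500 UMIs over the libraries together (and 3 in every one), Cldn11 was the 1 past 2-fold, beside 773 of 9852 genes (7.85%). The median ratio was 1.35 over these 8 genes and 1.24 over all genes tested. Opalin, a membrane protein made by oligodendrocytes, had 367 UMIs in all and fell below the minimum. Its levels of 7.97, 13.2, 9.57 and 7.55 CPM put library 2 highest and library 4 lowest, an order that no other myelin gene showed, at a ratio of 1.75 (1.24 to 2.47).

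**Figure D1:**
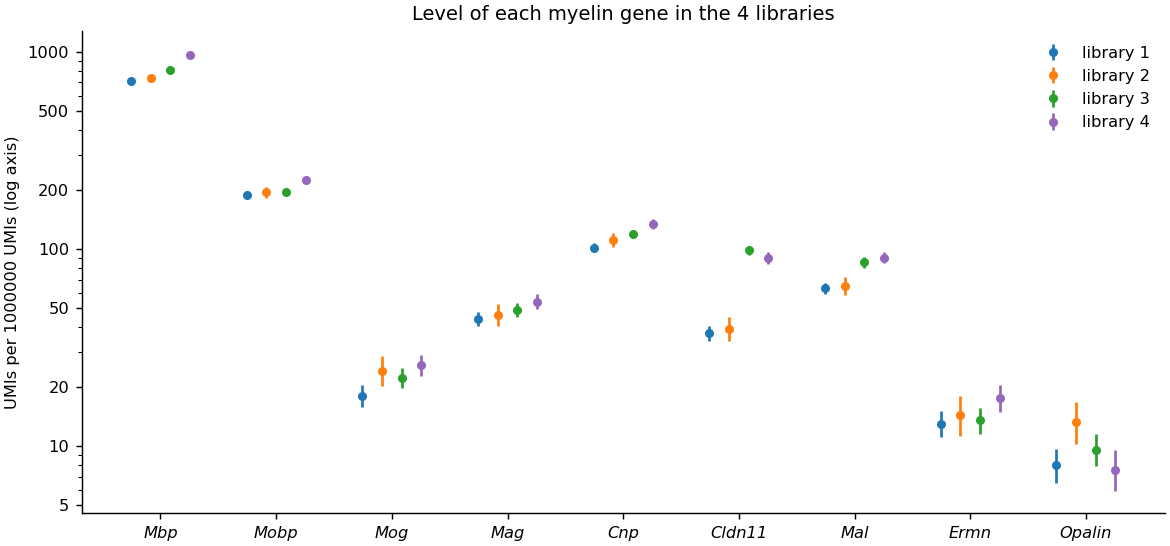
Level of each myelin gene in libraries 1 to 4, in UMIs per 1000000 UMIs on a log axis. Points are single libraries and bars are exact 95% Poisson intervals. Cldn11 was at 37.4 and 39.4 CPM in libraries 1 and 2 and at 98.5 and 90.3 CPM in libraries 3 and 4, a wider gap than for the other genes shown.

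Other oligodendrocyte genes gave the setting for these ratios. Of 17 further genes of mature oligodendrocytes, 9 had enough UMIs and 0 were past 2-fold between libraries. Below the minimum, Klk6, a secreted protease of oligodendrocytes, was at 2.63, 3.83, 11.6 and 6.92 CPM, a ratio of 4.40 (3.02 to 6.56), while Gjb1 and Nipal4 had ratios of 2.25 (1.45 to 3.46) and 2.51 (1.36 to 4.90) and were lowest in library 3. Of the 7 genes of the oligodendrocyte lineage with enough UMIs, 0 were past 2-fold. Among 11 genes of myelin lipid synthesis and glial support, which other cells also express, 3 passed. They were Trf, the iron carrier transferrin, at 74.9, 90.5, 249 and 240 CPM, the actin-binding Gsn at 67.5, 70.3, 224 and 180 CPM, and the lipid carrier Apod at 713, 797, 1530 and 1388 CPM. These 3 genes were lowest in library 1 and highest in library 3, as Cldn11 was.

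Within each library, all 9 myelin genes were higher, relative to all UMIs, in the same small set of spots, which none of them had chosen. The 17 mature oligodendrocyte genes that are not among the 9, such as Ugt8a, Aspa, Myrf and Pllp, ranked the spots by their share of the UMIs of a spot. The top 5% were 83, 36, 65 and 47 spots in libraries 1 to 4, here called oligodendrocyte-rich. All 9 genes were above 2-fold over the remaining spots in each library, with intervals above 1, where 6.80%, 9.38%, 2.21% and 3.11% of all genes tested were above 2-fold. The median fold over the 9 genes was 3.61, 4.69, 6.59 and 10.6. In library 1 these 5% of spots held 5.00% of the Mbp, 4.29% of the Cnp and 4.02% of the Cldn11 UMIs. With spots ranked after thinning to 2000 UMIs, Mbp in library 1 was at 1279 against 678 CPM, below 2-fold. Cnp at 177 against 97.7 CPM and Cldn11 at 68.3 against 35.8 CPM were below 2-fold as well.

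Mbp was at 2127, 3218, 4493 and 7935 CPM in the oligodendrocyte-rich spots and at 692, 686, 681 and 745 CPM in the remaining spots. These spots held 5.00%, 8.81%, 18.7% and 25.3% of the Mbp UMIs and 1.68% to 3.36% of all UMIs. Mog in library 4 had the largest fold of the 9 genes, 15.6 (11.8 to 20.4), from 276 against 17.7 CPM. Mobp rose 4.41-fold, 5.43-fold, 7.67-fold and 11.7-fold, and Mag 4.83-fold, 6.87-fold, 6.33-fold and 11.4-fold. The fold of Cnp was below that of Mbp in libraries 3 and 4, at 0.66 (0.56 to 0.78) and 0.78 (0.68 to 0.91) of it. Mal was likewise at 0.76 (0.63 to 0.91) and 0.72 (0.60 to 0.86) of the Mbp fold in those libraries. Cldn11 was at 0.58 (0.48 to 0.70) of it in library 3.

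Outside the oligodendrocyte-rich spots the libraries came close to each other in most of the 9 genes. Mag was at 41.7, 41.4, 41.6 and 41.0 CPM there, a ratio of 1.02 (0.89 to 1.16). The ratio of highest to lowest library was 1.09 (1.06 to 1.13) for Mbp, 1.13 (1.06 to 1.2) for Mobp and 1.11 (1.02 to 1.2) for Cnp. For Ermn it was 1.17 (0.85 to 1.58), for Mal 1.24 (1.13 to 1.37) and for Mog 1.32 (1.05 to 1.67). Cldn11 did not follow them, at 36.5, 36.7, 89.9 and 72.3 CPM and a ratio of 2.47 (2.21 to 2.75). Opalin, on fewer counts, was at 7.42, 12.3, 7.35 and 6.38 CPM, a ratio of 1.93 (1.33 to 2.80).

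Inside the oligodendrocyte-rich spots the libraries were far apart. The ratio of highest to lowest was 3.73 (3.38 to 4.13) for Mbp, 2.52 (2.12 to 2.99) for Mobp, 2.32 (1.65 to 3.33) for Mag and 7.36 (4.64 to 12.3) for Cldn11. Library 4 was highest and library 1 lowest in 8 of the 9 genes. Opalin was the exception, at 40.2, 56.9, 73.6 and 44.3 CPM, with an interval of the ratio that includes 1 (0.85 to 4.37). The leptomeninges genes, whose membranes also hold Cldn11, moved with library 4 in the same spots, at 3333, 1803, 4403 and 11614 CPM. That was 1.02-fold (0.94 to 1.09), 0.39-fold (0.34 to 0.45), 0.51-fold (0.48 to 0.53) and 1.91-fold (1.84 to 1.97) their level in the remaining spots, and their part in the ratios was not tested. In the top 10% of spots the Cldn11 ratio was 4.74 (3.60 to 6.32), over 1.5 times lower. The chosen spots were also shallow, with median depths of 2121, 2626, 4958 and 6415 UMIs against 8239, 7562, 9339 and 10128.5 UMIs elsewhere, and 1 UMI of the ranking genes was enough for the lowest of them. Ranking by spots thinned to 2000 UMIs gave lower median folds of 1.99, 3.05, 4.80 and 8.07, over 1.5 times lower in libraries 1 and 2. In that ranking, added after seeing the data, the ratio outside the chosen spots was 1.12 (1.08 to 1.15) for Mbp, 1.04 (0.88 to 1.23) for Mag and 2.52 (2.26 to 2.83) for Cldn11. Inside them the ratios were higher than in the main ranking, at 4.78 (4.39 to 5.21) for Mbp and 4.40 (3.73 to 5.22) for Mobp. Those of Mag and Cldn11 were 3.80 (2.77 to 5.29) and 7.79 (5.46 to 11.4). The place of each section along the bulb was not analysed here.

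**Figure D2:**
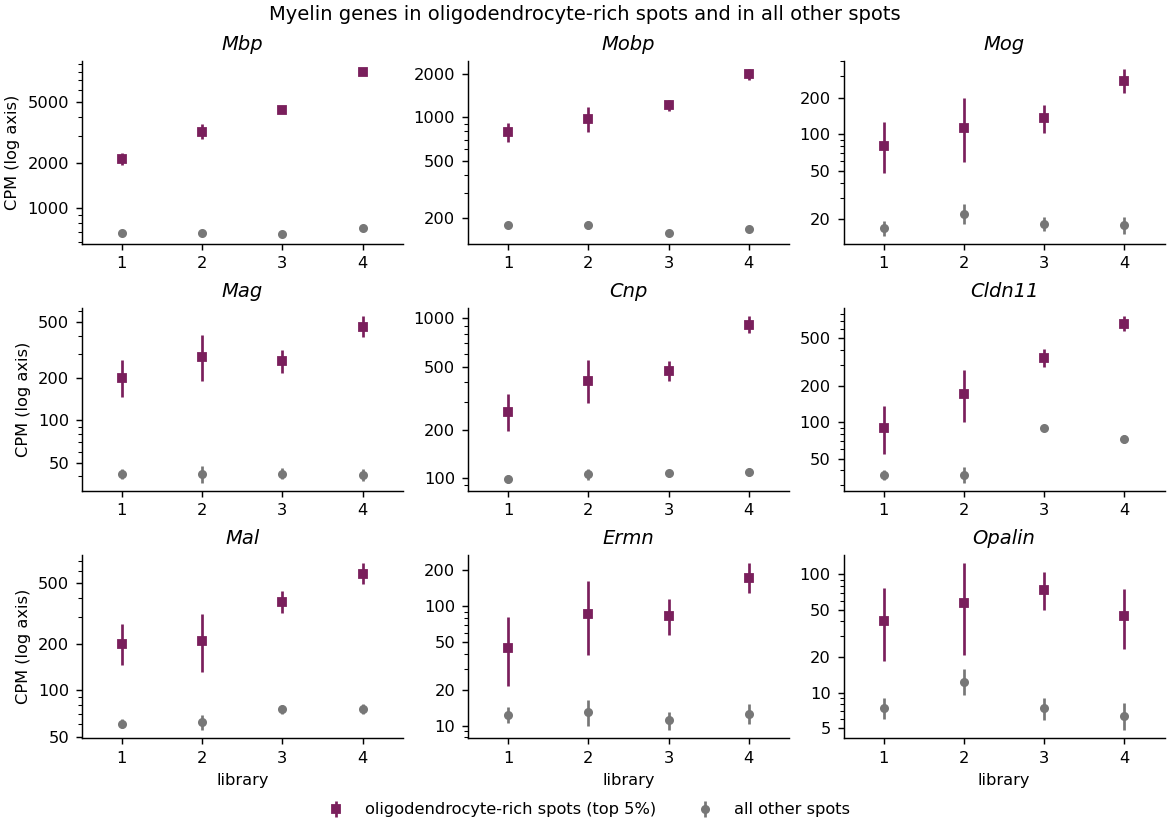
Level of each myelin gene (CPM, log axes that differ between panels) in the top 5% of spots by other oligodendrocyte genes (squares) and in all other spots (circles) of libraries 1 to 4, with exact 95% Poisson intervals. Squares lie above circles in every panel. Circles of Mag lie between 41.0 and 41.7 CPM, while those of Cldn11 run from 36.5 to 89.9 CPM.

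The ranking genes themselves were used to choose these spots, but the lineage and support genes were not. Of 11 lineage genes, 2, 4, 5 and 6 were above 2-fold in the oligodendrocyte-rich spots of libraries 1 to 4. Bcas1, a gene of newly formed and mature oligodendrocytes, was 2.90-fold, 4.52-fold, 3.89-fold and 7.82-fold higher there. Pdgfra, the growth factor receptor of oligodendrocyte precursors, was not higher, with 4, 0, 6 and 8 UMIs in those spots and folds of 0.92 (0.25 to 2.38), 0.48 (0.17 to 1.05) and 0.89 (0.38 to 1.77) in libraries 1, 3 and 4. Of 11 lipid and support genes, 4, 6, 6 and 8 were above 2-fold. Transferrin (Trf) was 3.09-fold, 3.29-fold, 2.46-fold and 4.40-fold higher, whereas Gsn in library 2 was at 0.94 (0.38 to 1.97).

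Counts per spot were uneven as well. An Mbp UMI was present in 91.3%, 92.7%, 92.6% and 94.3% of spots, and in 69.6%, 69.3%, 63.4% and 68.6% of spots thinned to 2000 UMIs, lowest in library 3. The median Mbp level of a spot was 6.29, 6.56, 5.01 and 5.52 UMIs per 10000, so the libraries with the highest summed level did not have the highest median. Their upper tails were longer, with 95th percentiles of 24.7, 26.5, 39.3 and 43.9 UMIs per 10000. The spot with the most Mbp held 45, 33, 243 and 281 UMIs. No spot of libraries 1 and 2 reached 50 Mbp UMIs, which 19 and 25 spots of libraries 3 and 4 did. These counts are not scaled for the depth of the spot. Per 10000 UMIs, the highest Mbp level of a spot was 97.3, 101, 207 and 248, a smaller gap between libraries.

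Cldn11 differed from Mbp in this respect too. The share of thinned spots with a Cldn11 UMI was 7.63%, 7.51%, 16.6% and 18.3%, and the 95% intervals of libraries 1 and 2 (6.30% to 9.13% and 5.57% to 9.86%) did not reach those of libraries 3 and 4 (14.6% to 18.8% and 15.9% to 21.0%). For Mobp the 4 shares lay between 29.1% and 31.0% and for Mag between 8.89% and 10.5%, with overlapping intervals. Without thinning the Cldn11 shares were 22.6%, 22.7%, 48.1% and 43.8%.

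Spots rich in other cell types were then examined in the same way, a step added after a first look at the data. In the top 5% of spots by 9 genes of the leptomeninges, the thin membranes on the brain surface, Cldn11 was 2.95-fold (2.17 to 3.93), 4.31-fold (2.88 to 6.28), 3.21-fold (2.72 to 3.78) and 3.88-fold (3.12 to 4.77) higher than elsewhere. It was the 1 myelin gene above 2-fold there in all 4 libraries, where 7.56%, 8.00%, 5.77% and 4.99% of all genes tested passed. Mbp was at 0.53, 0.49 and 0.29 of its level elsewhere in libraries 1 to 3 and at 1.22 (1.09 to 1.35) in library 4. Cldn11 was thus higher in these spots as well as in the oligodendrocyte-rich ones. The leptomeninges genes summed to 3283, 4583, 8530 and 6265 CPM over the libraries, and none of the 9 was at 0 in any. Without the spots richest in them the ratio of Cldn11 between libraries was 2.58 (top 5% left out) and 2.61 (top 20% left out). After the latter step Cldn11 was at 33.3, 31.7, 82.7 and 74.8 CPM. With the top 5% left out, the leptomeninges genes were at 1516, 2239, 4830 and 4200 CPM in the remaining spots of libraries 1 to 4. Their part in the Cldn11 ratio was not tested.

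Mal parted from the compact myelin genes in spots rich in ensheathing glia or endothelial genes, and not in these alone. Its fold was above that of Mbp, beyond the interval, in 4 libraries for reactive glia genes. This held in 3 libraries each for leptomeninges, mucosa epithelium and sensory neuron genes, and in 0 for astrocyte and microglia genes. In the mucosa epithelium spots Mal was at 1.87 (1.40 to 2.45), 0.86 (0.46 to 1.46), 1.33 (1.01 to 1.71) and 1.72 (1.29 to 2.25). In the spots richest in 6 genes of olfactory ensheathing glia, Mal was 2.29-fold (1.73 to 2.99), 2.02-fold (1.3 to 3.02), 2.38-fold (1.94 to 2.90) and 2.33-fold (1.83 to 2.92) higher in libraries 1 to 4. There 8.38%, 8.62%, 7.81% and 7.46% of all genes tested were above 2-fold. Mbp was at 0.44, 0.53, 0.36 and 0.35 of its level elsewhere in the same spots, and Mobp at 0.35, 0.52, 0.23 and 0.28. Cnp lay between these, at 1.19 (0.88 to 1.57), 1.01 (0.63 to 1.52), 1.17 (0.93 to 1.47) and 1.03 (0.78 to 1.35), above Mbp by a factor of 2.73, 1.89, 3.29 and 2.96. Cldn11 was 2.44-fold and 3.38-fold higher in libraries 1 and 2, 1.80-fold in library 3 and at 0.83 (0.56 to 1.18) in library 4. The list includes Apod and Sox10, which oligodendrocytes also express. The 17 mature oligodendrocyte genes were higher in these spots too, at 358 against 213 CPM elsewhere, 351 against 219, 402 against 241 and 330 against 279 CPM in libraries 1 to 4, and their part in the Mal levels was not tested. Spots rich in the endothelial genes Cldn5, Pecam1 and Flt1 were high in Mal too, at 2.59-fold (1.93 to 3.42), 1.58-fold (0.92 to 2.53), 2.95-fold (2.39 to 3.61) and 2.65-fold (2.08 to 3.35), where 6.45%, 7.07%, 6.09% and 7.30% of all genes tested were above 2-fold. Mbp was at 0.75, 0.83, 0.51 and 0.65 in them, and the 17 oligodendrocyte genes at 271, 257, 364 and 364 CPM against 216, 223, 244 and 278 CPM elsewhere.

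In the spots richest in genes of peripheral myelin, Mal was also high while Mbp was low in library 3 alone. Mal was 2.95-fold, 2.17-fold, 2.64-fold and 2.63-fold higher there, where 6.03%, 5.64%, 7.50% and 6.43% of all genes tested were above 2-fold, and Mbp was at 0.99, 1.46 (1.27 to 1.67), 0.43 and 1.02. The 17 oligodendrocyte genes were at 380, 357, 379 and 467 CPM in them against 213, 219, 243 and 274 CPM elsewhere. These spots rested mostly on Pmp22, which ranged from 30.1 to 94.5 CPM over the libraries and is expressed by many cells. Pmp2, a fatty acid binding protein of Schwann cell myelin, was at 0 UMIs in all 4 libraries. By the exact 95% interval, a count of 0 allows up to 0.277, 0.706, 0.294 and 0.387 CPM in libraries 1 to 4.

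The genes also parted in spots rich in phagocyte genes such as Gpnmb, Spp1 and Mmp12, whose list summed to 173, 163, 554 and 415 CPM, with 1 of its 5 genes at 0 in libraries 1 and 2. In libraries 3 and 4 these spots held Mbp at 0.49 (0.43 to 0.55) and 0.34 (0.29 to 0.39) of its level elsewhere. Cnp was at 1.47 (1.21 to 1.78) and 1.15 (0.91 to 1.44) in the same spots, so that its fold was 3.01 (2.39 to 3.78) and 3.43 (2.58 to 4.52) times that of Mbp. Mal was 1.57-fold (1.25 to 1.95) and 1.52-fold (1.18 to 1.95) higher. In libraries 1 and 2 the folds of Cnp and Mbp lay together, at 0.73 and 0.78 in library 1 and 0.75 and 0.71 in library 2. The ratio of the 2 folds there was 0.94 (0.71 to 1.21) and 1.06 (0.68 to 1.61), intervals that do not reach those of libraries 3 and 4. The difference between libraries was not tested beyond these intervals. The lowest of the phagocyte spots held 1, 1, 5 and 6 UMIs of the list in libraries 1 to 4. The genes that ranked the oligodendrocyte-rich spots were at 186, 140, 340 and 299 CPM in the phagocyte spots. Elsewhere they were at 220, 230, 243 and 280 CPM, and their part in the Cnp and Mbp folds was not tested. The split of Cnp and Mbp was not limited to phagocyte genes. In reactive glia spots the Cnp fold was 3.05 (2.47 to 3.75) times that of Mbp in library 3. It was 2.89 (2.26 to 3.66) times that of Mbp in library 4. In libraries 1 and 2 the values were 1.29 (0.92 to 1.76) and 1.81 (1.04 to 3.03). The Cnp fold was above that of Mbp, beyond the interval, in 4 libraries for sensory neuron genes and in 0 for microglia genes.

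Among the neuronal lists, those of granule cells and migrating neuroblasts marked spots high in compact myelin genes. In the spots richest in granule cell genes, which were shallow at median depths of 1748, 2173, 5347 and 5885 UMIs, Mbp was 1.96-fold, 1.84-fold, 2.32-fold and 1.46-fold higher and Mobp 2.51-fold, 1.91-fold, 2.86-fold and 1.76-fold higher, all with intervals above 1. Spots rich in genes of migrating neuroblasts had Mbp at 1.74-fold to 2.53-fold and Mobp at 2.13-fold to 2.71-fold. The reverse was seen for mitral and tufted cell genes, with Mbp at 0.66, 0.61, 0.66 and 0.64 and Mobp at 0.56, 0.58, 0.73 and 0.75. In spots rich in genes of olfactory sensory neurons, whose axons lack myelin, Mbp was at 0.38, 0.55, 0.39 and 0.29 of its level elsewhere. Median depths were 1994, 1953.5, 4292 and 3741 UMIs in the neuroblast spots and 13246, 11132.5, 13705 and 13096 UMIs in the mitral and tufted cell spots. The sensory neuron spots, low in Mbp, were at 4247, 4249.5, 7899 and 6464 UMIs. The part of depth in these folds was not tested.

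**Figure D3:**
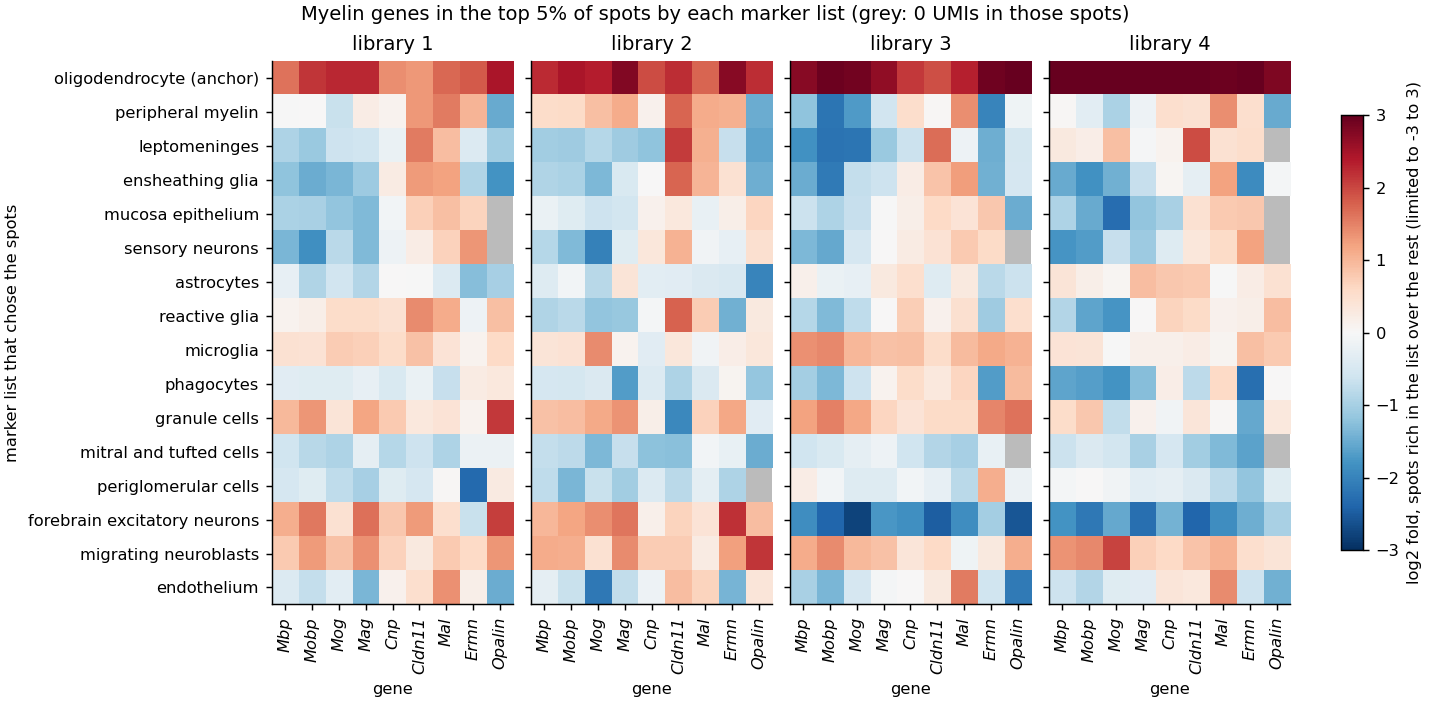
Log2 fold of each myelin gene (columns) in the top 5% of spots by each marker list (rows) over the other spots, in libraries 1 to 4, limited to the range from -3 to 3. Red is higher and blue lower in the chosen spots, and grey marks genes with 0 UMIs there. The oligodendrocyte row is red for all 9 genes. Cldn11 in the leptomeninges row is red beside blue Mbp in libraries 1 to 3, and Mal in the ensheathing glia row in libraries 1 to 4. In library 2 the mucosa epithelium set was partly filled with spots that held 0 UMIs of that list.

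Regions of spots were formed by clustering without any of the listed genes, and each is named by its leading gene, which stands for no cell type. Of 9 regions, 2 had at least 30 spots in all 4 libraries, led by Adamts19 and Kcnj10. The Adamts19 region held 61 of 83, 26 of 36, 23 of 65 and 4 of 47 oligodendrocyte-rich spots, and its median depth was 0.442 of that of the libraries. Mbp was at 1093, 1125, 1760 and 1287 CPM in it, a ratio of 1.61 (1.52 to 1.70). Cldn11 was at 37.5, 37.2, 121 and 92.8 CPM in the same region, a ratio of 3.25 (2.35 to 4.55). A gap in Cldn11 between libraries was also present among the spots of this region. The median depth of the region was 2711, 3159.5, 5032 and 5522 UMIs in libraries 1 to 4. The part of differences in its make-up was not tested.

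In the Kcnj10 region Mbp was at 544, 544, 1146 and 6182 CPM, an 11.4-fold ratio (10.2 to 12.7), and Cldn11 at 37.1, 17.8, 97.8 and 331 CPM, an 18.6-fold ratio (8.13 to 52.2). In library 4 this region of 42 spots held 15 of the 47 oligodendrocyte-rich spots, against 1 of 83 in library 1. Its Mag was at 22.7, 29.7, 27.2 and 254 CPM and its Mobp at 138, 137, 168 and 1407 CPM, so that both were high in library 4 and at 168 CPM or below in the other 3 libraries. Resolution 0.4 in the clustering lowered the highest median fold of the 9 genes in a region of library 4 from 5.68 to 4.06.

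Of the regions found mainly in libraries 3 and 4, some set Mbp apart from Cnp and Mal, in opposite directions. In the Tac1 region (344 and 256 spots) Mbp was at 1473 and 1257 CPM, 2.52-fold (2.42 to 2.62) and 1.48-fold (1.42 to 1.54) above the other spots, while Cnp was at 1.29 (1.15 to 1.44) and 1.04 (0.92 to 1.17) and Mal at 1.13 (0.99 to 1.29) and 1.01 (0.87 to 1.17). It held 25 of the 65 and 15 of the 47 oligodendrocyte-rich spots of these libraries. In the Mmp12 region (253 and 166 spots) Mbp was at 500 and 463 CPM, or 0.56 (0.53 to 0.59) and 0.43 (0.40 to 0.46) of the other spots. Cnp was at 167 and 161 CPM there, 1.57-fold (1.40 to 1.76) and 1.26-fold (1.10 to 1.44) higher, and Mal was 1.58-fold (1.38 to 1.80) and 1.53-fold (1.31 to 1.78) higher. Cldn11 was highest of these regions in the Ces1a region, at 197 and 211 CPM, or 2.37-fold (2.08 to 2.69) and 2.84-fold (2.43 to 3.30) above the other spots. Mbp in that region was at 355 and 1268 CPM, low in library 3 and high in library 4. The Trbc2 region (240 and 205 spots) was low in all of these genes, with Mbp at 328 and 438 CPM and Cldn11 at 37.1 and 24.1 CPM. Mbp was set apart from Cnp and Mal outside libraries 3 and 4 too. The region led by Bpifb9b had 177 and 45 spots in libraries 1 and 2. Its Mbp was at 0.49 (0.43 to 0.54) and 0.51 (0.41 to 0.63) of the other spots. Its Cnp was at 1.10 (0.89 to 1.35) and 1.17 (0.78 to 1.69). Mal was at 1.72 (1.37 to 2.14) and 1.41 (0.86 to 2.20), and Cldn11 at 1.48 (1.07 to 1.99) and 2.18 (1.29 to 3.51).

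**Figure D4:**
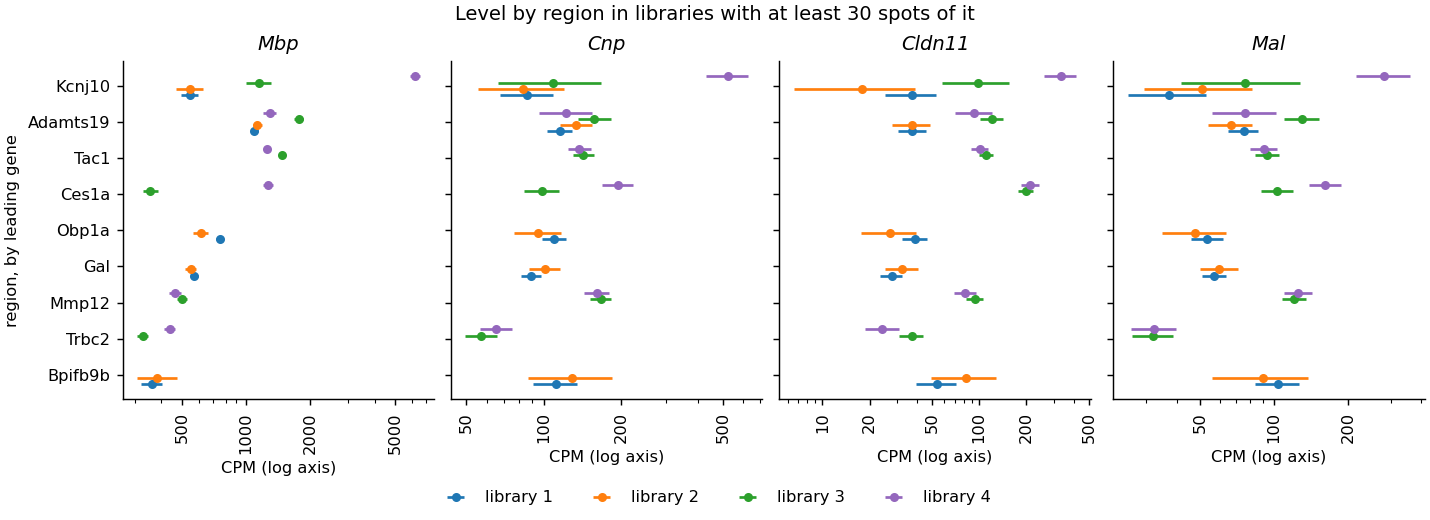
Level of Mbp, Cnp, Cldn11 and Mal (CPM, log axes) by region and library, for libraries with at least 30 spots of a region, with exact 95% Poisson intervals. In the Mmp12 region Mbp lies near the low end at 500 and 463 CPM while Cnp is at 167 and 161 CPM. The Kcnj10 region of library 4 holds the highest Mbp, at 6182 CPM.

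Across single spots thinned to 2000 UMIs, the ranks of Mbp and Mobp went together more than those of any other pair of the 9 genes. Spearman's rho was 0.26, 0.35, 0.40 and 0.41 over 1429, 626, 1254 and 923 spots, which share library and depth. Over the 36 pairs the median rho was only 0.042, 0.060, 0.088 and 0.14, and such values in sparse counts are given without a reading. Among 7345 genes with at least 1000 UMIs, Mobp was the gene most like Mbp by its lowest rho over the libraries. Pcp4, Cpne6, Sez6 and Gng4 followed it, with a lowest rho of 0.18, 0.18, 0.18 and 0.16. For the sum of the 9 genes the leading genes were Sez6, Inpp5j, Cpne6, Gng4, Gad1, Pcp4l1, Pcp4, Gpsm1, Rgs12 and Pbx3, with a lowest rho from 0.12 to 0.18. For each of the other 7 genes beside Mbp and Mobp the closest gene had a lowest rho from 0.046 to 0.13, and for Cldn11 it was Ptgds, a gene of the leptomeninges list, at 0.093.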

How the data were processed

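The authors deposited 1 matrix of raw UMI counts for genes and spots of 4 libraries, written, per the file headers, by Space Ranger 1.3.1. The submitters' processing notes name GRCm39 as the build. Annotation and read filters: not given in the sources used here. PCR copies are collapsed by the UMIs.

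A minimum of 500 UMIs kept 4616 of 4713 spots and left out 0.0680% of the UMIs. CPM were computed on the summed UMIs of kept spots in each library (13304973, 5223890, 12533691 and 9533952 UMIs), with exact Poisson intervals around levels, conditional binomial intervals (exact) around ratios of 2 levels, the conditional interval of an odds ratio for ratios of folds, and exact (Clopper-Pearson) intervals for shares, all at 95%. A sum of 3 UMIs corresponds to 0.225 to 0.574 CPM. Spot numbers assign no library to a mouse, so no test between groups, mean or SD was computed. Called means past 2-fold, since each library stands alone.

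Thinning to 2000 UMIs left out 233, 89, 42 and 20 shallower spots. For regions, counts scaled to 10000 per spot were log1p-transformed, 2000 variable genes without listed, mitochondrial, ribosomal protein and haemoglobin genes were reduced to 30 components, and spots joined to 15 neighbours were clustered with leidenalg 0.10.2 at resolution 0.8. Spots were not screened for mixtures, and positions and images were not used.

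All 9 genes are named, with the 5 genes most like each and the 10 most like their sum by the lowest rho over libraries, and members of fixed lists of oligodendrocyte, support and cell type genes. The genes, lists and rules were chosen with earlier results of these data known. Some other genes of these lists are not reported here. Promoters come from the RefSeq table of GRCm38.p6, which matched 8 of the 9 genes. The calculations were tested on simulated data. Python 3.11.15, numpy 2.4.6, scipy 1.17.1 and pandas 2.3.3 were used.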

Additional observations from a re-analysis of the deposited data

How the results depend on the processing

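Among genes above the UMI minimum, the number of myelin genes past the fold threshold between libraries was 1 under each of the 18 alternatives run. Of these, 12 were planned and 6 added after seeing the data, and 1 used a threshold of 1.5-fold instead of 2-fold. The gene was Cldn11 in each. Its ratio ranged from 2.32, without the 20% of spots richest in phagocyte genes, to 2.68. The ratio of Opalin, which lay below the main minimum of 500 UMIs, ranged from 1.27 to 2.08. It was past 2-fold with each spot weighted alike. Of 135 ratios of single genes under these alternatives, 117 stayed within the 95% interval of the reported ratio and 18 did not. Leaving out a library that is neither highest nor lowest for a gene cannot change its ratio. Some of the 117 therefore agreed by arithmetic alone. The median fold in oligodendrocyte-rich spots of libraries 1 to 4 was 4.85, 7.58, 8.45 and 14.8 in the top 2% of spots, 2.75, 3.02, 5.11 and 8.23 in the top 10%, and 1.99, 3.05, 4.80 and 8.07 when ranked after thinning. The order of the 4 libraries was kept in each. The median share of spots with a UMI (8.89%, 10.2%, 15.7% and 14.8%) was 5.61%, 5.76%, 8.07% and 10.3% when thinned to 1000 UMIs and 25.9%, 25.9%, 43.1% and 43.8% without thinning, a change that follows from the depth. The median rho over pairs was 0.0995, 0.151 and 0.231 in libraries 1, 3 and 4 without thinning, and 0.0767 in library 4 without the oligodendrocyte-rich spots. At clustering resolution 0.4 the highest median fold in a region of library 4 was 4.06. The cause of these shifts was not tested. No paired analysis was possible because the spot barcodes carry no replicate of the labels and no library could be assigned to a mouse. Depth limits Opalin and Ermn most, with 367 and 583 UMIs in all.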

Other observations

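Spots rich in genes of forebrain excitatory neurons held Mbp at 0.28 and 0.29 of its level elsewhere in libraries 3 and 4, and at 2.13 and 2.01 in libraries 1 and 2, where that list summed to 263 and 323 CPM against 1591 and 1670 CPM. The chosen spots were unlike in depth, with medians of 1282, 2147.5, 17679 and 15143 UMIs in libraries 1 to 4, against 8245, 7574, 8777 and 9501.5 UMIs elsewhere. The lowest of them held 1, 1, 45 and 51 UMIs of the list. In spots rich in sensory neuron genes Ermn was 2.49-fold (1.26 to 4.47) and 2.31-fold (1.17 to 4.16) higher in libraries 1 and 4, on 12 UMIs each, and at 0.84 (0.10 to 3.16) and 1.49 (0.70 to 2.81) in libraries 2 and 3.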
